A study of Mus musculus with 6 samples.

Results

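The genes described here are 55 genes of mitosis, the spindle and the kinetochore, out of 17567 genes with a row in the deposited tables. They were chosen by name: a row belonged to the set where its NCBI Gene number mapped to a listed symbol. The rule uses no expression value, but the list was drawn up with earlier results of these data known. All 55 had a row, and all 55 were among the 12209 genes abundant enough to be tested. They cover 8 kinesins, 4 spindle checkpoint genes, 7 kinetochore and centromere genes, 4 genes of the chromosomal passenger complex, 9 cyclins and mitotic kinases, 3 genes of the anaphase-promoting complex pathway and mitotic entry, 7 spindle and microtubule genes, 4 condensin genes, 4 chromosome structure genes and 5 cytokinesis genes.

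RNA was sequenced from immature dendritic cells of the mouse, which sample antigen and have not yet matured, with and without hydrogen peroxide (H2O2) as a model of oxidative stress. The H2O2 group received 100 µM H2O2 for 24 h, and the control group is labelled as control; whether control cells were kept in culture for the same further 24 h is not given in the sources used here. Both groups came from bone marrow of C57BL/6 mice 6 weeks old and labelled male. Cells were grown in 10% serum with 20 ng/mL GM-CSF and 10 ng/mL interleukin-4 until day 6. Both groups were purified by CD11c on magnetic beads. Such cultures start from dividing precursors and can also hold macrophages and granulocytes, which limits them as a model of a single cell type. Whether replicates were separate mice or separate cultures is not stated in the labels; the p-values cover the spread among these libraries alone, part of which may be technical.

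Library totals lay between 16232604 and 16672491 estimated counts. The third H2O2 sample held the same 17567 values as the first and was counted once, which left 2 distinct H2O2 libraries and 3 control libraries. The libraries also fell into 2 sets that cross the treatment. The summed level of 4 Y-linked genes was 96.4 CPM (counts scaled to a common library size) in H2O2 replicate 1 and 106 CPM in control replicate 1, but 0.427 CPM in H2O2 replicate 2 and at most 0.308 CPM in control replicates 2 and 3, although the mice were labelled male. H2O2 replicate 1 and control replicate 1 are called set A here, and H2O2 replicate 2 with control replicates 2 and 3 set B. The comparison of H2O2 with control was fitted with a term for the set, so that each H2O2 library was compared with controls of its own set.

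A dividing cell builds a bipolar spindle from microtubules, compacts its chromosomes with condensin, and attaches each chromosome to the spindle through a kinetochore assembled on the centromere. The spindle checkpoint holds the anaphase-promoting complex (APC/C) in check until all kinetochores are attached; the APC/C then marks securin and cyclin B for destruction, the chromatids part, and cytokinesis cuts the cell apart. Transcripts of many of these genes are low in resting and early cycling cells and peak late in the cycle. Their promoters are known for a cell cycle homology region, the CHR, to which the repressing DREAM complex and, later in the cycle, complexes with MYBL2 and FOXM1 are recruited, and for CCAAT boxes bound by NF-Y.

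All 55 genes had a lower fitted level in H2O2 cells than in control cells, and 51 of them fell by edgeR's quasi-likelihood test at a threshold of 0.05 on the p adjusted by Benjamini and Hochberg. None rose. Across all tested genes, 563 of 12209 (4.61%) were called lower and 480 higher. The median log2 change, H2O2 over control, was -1.49 for the 55 genes, with a range of -2.08 to -0.22, against 0.01 for all tested genes. Among the 51 genes, 49 had a log2 change of -1 or below, as did 195 called genes in the whole table. The 4 genes that were not called were Spc25, Incenp, Smc4 and Cenpa. In RNA from many cells together, fewer dividing cells and less mitotic RNA per cell cannot be told apart.

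The count of 51 depends on the set term and on each of the H2O2 libraries. Without the set term, edgeR called 0 of the 55 genes and 0 genes in the whole table; 13 of the 55 genes and 853 genes in all had an unadjusted p under 0.05. DESeq2 without the term called 105 genes in the table and 0 of the 55, and limma-voom called 0 genes. With the set term and no filter on low counts, 3 of the 55 genes were called lower, as were 42 of 16398 genes in all. Leaving out H2O2 replicate 2 removed all calls of the 55 genes and nearly all calls in the whole table. Without H2O2 replicate 1 fewer of the 55 genes were called, although the whole table had more calls, higher and lower together. Both of these fits keep 1 H2O2 library, so only their changes are given. Every one of the 55 fitted changes lay below 0 under each of these settings. Their median log2 change was -1.33 without the set term in edgeR, -1.34 in DESeq2 and -1.26 in limma-voom, -1.63 without H2O2 replicate 2 and -1.48 without H2O2 replicate 1.

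**Figure D1:**
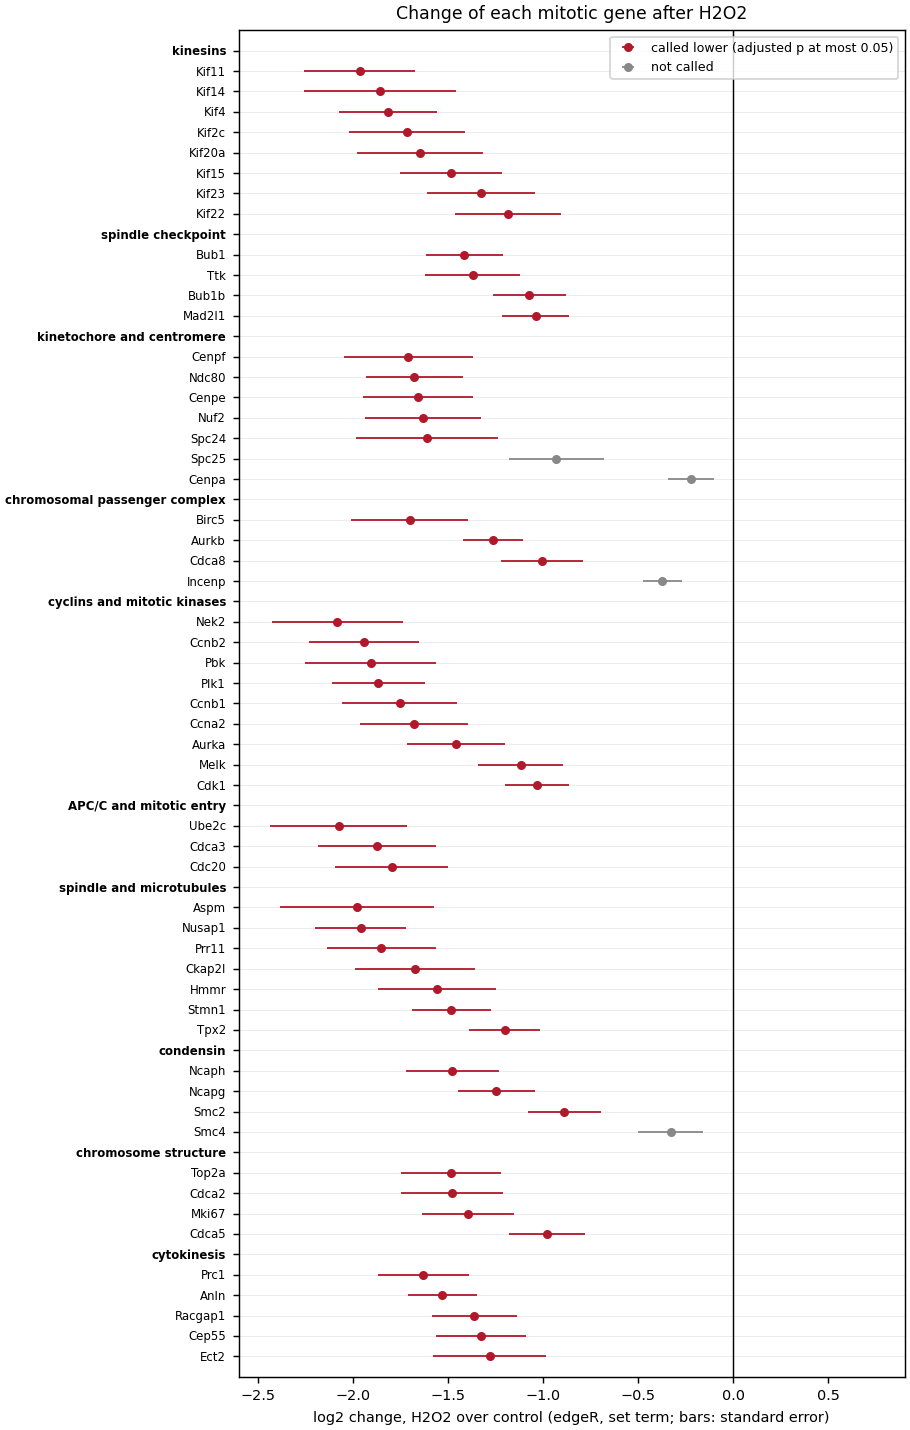
Fitted log2 change, H2O2 over control, of each of the 55 genes (horizontal axis; points are edgeR estimates with the set term, bars are standard errors; genes run down the page by role). The 51 red points are genes called lower and the 4 grey points, Spc25, Cenpa, Incenp and Smc4, are not called; all points lie left of 0.

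Promoter windows show what the genes share in sequence, which the rule for choosing them did not use. RefSeq windows of GRCm38.p6, from 250 bases before to 50 bases after a transcript start, were held for 45 of the 55 genes, 48 windows in all; Kif20a, Spc24, Aurkb, Incenp, Ccna2, Pbk, Tpx2, Stmn1, Smc4 and Cdca2 were not matched. The CHR was searched as the hexamers TTTGAA and TTCGAA and the NF-Y box as CCAAT, each on both strands; a hexamer and a CCAAT box can share an end base but no more. A CHR hexamer was present in 39 of the 48 windows (81.3%), against 2678 of 17452 windows (15.3%) of all genes with a row. CCAAT was present in 35 of 48 windows (72.9%), against 37.6% of all windows, and both motifs were present in 32 windows (66.7%), against 6.32%. A match is a run of letters and not a measured binding site. The windows of 5 genes that lead their role groups by the test are printed here, 5′ to 3′ on the gene's strand, with CHR hexamers and CCAAT boxes of either strand in capitals (TTCAAA and ATTGG are the same motifs read on the other strand).
Kif4: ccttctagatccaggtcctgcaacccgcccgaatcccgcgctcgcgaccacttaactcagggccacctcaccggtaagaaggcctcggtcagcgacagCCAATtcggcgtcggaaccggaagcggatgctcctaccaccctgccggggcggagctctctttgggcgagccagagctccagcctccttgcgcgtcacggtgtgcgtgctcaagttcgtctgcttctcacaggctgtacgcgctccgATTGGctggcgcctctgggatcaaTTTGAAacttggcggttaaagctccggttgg
Bub1: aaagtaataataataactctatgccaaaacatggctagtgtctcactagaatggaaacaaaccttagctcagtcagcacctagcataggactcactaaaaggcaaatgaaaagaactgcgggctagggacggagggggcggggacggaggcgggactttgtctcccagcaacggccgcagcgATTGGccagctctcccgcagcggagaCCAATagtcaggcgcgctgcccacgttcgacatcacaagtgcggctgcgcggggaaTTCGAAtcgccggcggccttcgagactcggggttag
Ndc80: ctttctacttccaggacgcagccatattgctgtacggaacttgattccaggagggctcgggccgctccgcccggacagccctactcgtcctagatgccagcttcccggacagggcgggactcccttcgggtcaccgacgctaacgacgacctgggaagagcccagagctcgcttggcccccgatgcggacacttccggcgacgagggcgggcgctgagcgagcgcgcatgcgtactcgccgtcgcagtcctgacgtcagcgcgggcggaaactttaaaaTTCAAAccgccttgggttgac
Plk1: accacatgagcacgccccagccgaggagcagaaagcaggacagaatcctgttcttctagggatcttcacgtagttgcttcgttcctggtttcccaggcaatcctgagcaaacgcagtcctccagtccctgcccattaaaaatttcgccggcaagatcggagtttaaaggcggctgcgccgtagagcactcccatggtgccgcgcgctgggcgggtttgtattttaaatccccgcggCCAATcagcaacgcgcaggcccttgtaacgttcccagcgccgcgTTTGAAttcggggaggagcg
Anln: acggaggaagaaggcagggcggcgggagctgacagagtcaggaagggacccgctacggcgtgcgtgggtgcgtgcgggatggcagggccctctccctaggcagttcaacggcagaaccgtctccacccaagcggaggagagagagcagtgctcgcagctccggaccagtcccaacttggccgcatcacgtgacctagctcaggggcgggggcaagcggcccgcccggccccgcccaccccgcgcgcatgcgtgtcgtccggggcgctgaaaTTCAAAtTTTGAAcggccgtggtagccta

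The Kif4 window lies at chrX:100625815-100626114 on the plus strand, with a CHR hexamer 19 bases after the start and CCAAT boxes 152 and 5 bases before it. The Bub1 window, chr2:127831810-127832109 on the minus strand, has the hexamer 14 bases after the start and CCAAT boxes 68 and 42 bases before it. Ndc80, at chr17:71526808-71527107 on the minus strand, has a hexamer 29 bases after the start and no CCAAT in the window. In Plk1, at chr7:122159185-122159484 on the plus strand, the hexamer starts 30 bases after the start and a CCAAT box 14 bases before it. Anln, at chr9:22389157-22389456 on the minus strand, holds 2 hexamers that begin 21 and 28 bases after the start and no CCAAT. Over the 48 windows, 25 CHR hexamers lay from 0 to 49 bases after the start and 14 in the 50 bases before it, while 29 CCAAT boxes lay from 100 to 51 bases before the start.

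**Figure D2:**
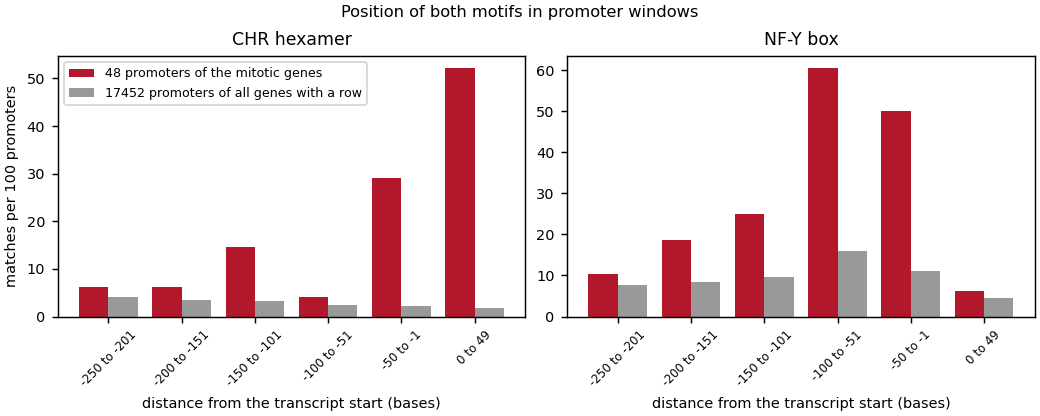
Matches per 100 promoter windows (vertical axes) by distance from the transcript start in bases (horizontal axes), for the CHR hexamer on the left and the NF-Y box on the right; red bars are the 48 windows of the mitotic genes and grey bars the 17452 windows of all genes with a row. The mitotic genes had 52.1 CHR hexamers per 100 windows in the 50 bases from the start onward, against 1.86 in all windows, and 60.4 NF-Y boxes per 100 windows from 100 to 51 bases before it, against 15.95.

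The kinesins are motors that move along or take apart microtubules; the 8 measured here work in mitosis. All 8 fell, with a median log2 change of -1.68. Kif4, a motor of chromosome arms and the central spindle, had 10.2 and 3.37 CPM in H2O2 replicates 1 and 2, against 34.3, 9.12 and 16.2 CPM in control replicates 1, 2 and 3. H2O2 replicate 1 was above control replicate 2, so the groups overlapped, but each H2O2 library was below every control of its own set. The log2 change was -1.81 ± 0.26 (SE), a 3.52-fold lower level (edgeR adjusted p = 0.0184). Kif11, the motor that pushes the spindle poles apart, had 23.9 and 10.6 CPM in the H2O2 libraries, against 98.9, 25.6 and 51.9 CPM in the control libraries. Both H2O2 libraries lay below all 3 controls, and Kif11 fell by 1.96 ± 0.29 on the log2 scale (edgeR adjusted p = 0.0212). The other 6 kinesins changed by -1.86 (Kif14, a motor of cytokinesis) to -1.18 (Kif22, a motor that pushes chromosome arms); Kif2c, which takes microtubules apart at kinetochores, changed by -1.72, Kif20a by -1.65, Kif15 by -1.48 and Kif23 by -1.33 on the log2 scale.

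All 4 spindle checkpoint genes fell, with a median log2 change of -1.22. Bub1, the kinase that brings checkpoint proteins to the kinetochore, had 17.1 and 10.5 CPM in H2O2 libraries, against 48.4, 20.4 and 32.4 CPM in controls (log2 change -1.41 ± 0.20, edgeR adjusted p = 0.0199). Mad2l1, which encodes the checkpoint protein that binds the APC/C activator Cdc20, had 17.6 and 14.1 CPM in H2O2 libraries, against 43.8, 20.8 and 28.3 CPM in controls (log2 change -1.04 ± 0.18, edgeR adjusted p = 0.0244). Bub1b, whose product BubR1 inhibits the APC/C, had 34.2 and 26.3 CPM in H2O2 libraries, against 86.4, 38.1 and 56.8 CPM in controls (log2 change -1.07 ± 0.19, edgeR adjusted p = 0.0259). In these 3 genes the H2O2 libraries lay below every control. In Ttk, the checkpoint kinase MPS1, the log2 change was -1.37, and H2O2 replicate 1 (5.38 CPM) was just above control replicate 2 (5.32 CPM).

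Of the 7 kinetochore and centromere genes, 5 fell and 2 were not called. Ndc80, a subunit of the complex that grips microtubules, had 9.93 and 4.86 CPM in H2O2 libraries, against 33.1, 10.7 and 19.1 CPM in controls, without overlap (log2 change -1.68 ± 0.25, edgeR adjusted p = 0.0213). Cenpe, a kinetochore motor that carries chromosomes to the spindle equator, had 25.2 and 10.9 CPM in H2O2 libraries, against 81.8, 21.9 and 45.2 CPM in controls (log2 change -1.66 ± 0.29, edgeR adjusted p = 0.0255). The 4 subunits of the NDC80 complex did not all pass the test: Nuf2 changed by -1.63 and Spc24 by -1.61, while Spc25 missed it. Spc25 had 10.3 and 9.65 CPM in H2O2 libraries, against 23.4, 11.6 and 20.2 CPM in controls, and its log2 change was -0.93 ± 0.25 (edgeR adjusted p = 0.0678). Spc24 was the scarcest of the 55 genes, at 2.78 and 1.43 CPM in H2O2 libraries, against 8.72, 2.54 and 5.91 CPM in controls. Cenpf, a large kinetochore and nuclear matrix protein, changed by -1.71. Cenpa, the histone H3 variant that marks the centromere, had the smallest fitted change of the 55. It had 29.9 and 24.4 CPM in H2O2 libraries, against 40.3, 23.6 and 27.0 CPM in controls, and its log2 change was -0.22 ± 0.12 (edgeR adjusted p = 0.278). For Cenpa, H2O2 replicate 2 lay between the 2 controls of its set.

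The chromosomal passenger complex corrects faulty attachments; 3 of its 4 genes fell. Aurkb, its kinase, had 12.6 and 6.93 CPM in H2O2 libraries, against 30.2, 14.3 and 19.1 CPM in controls, with no overlap (log2 change -1.26 ± 0.16, edgeR adjusted p = 0.0151). Birc5, which encodes survivin, had 9.16 and 4.60 CPM in H2O2 libraries, against 31.5, 9.18 and 19.0 CPM in controls (log2 change -1.70 ± 0.31, edgeR adjusted p = 0.0267). H2O2 replicate 1 and control replicate 2 were nearly equal for Birc5. Cdca8, which encodes borealin, changed by -1.01. Incenp, the scaffold of the complex, had 55.6 and 41.3 CPM in H2O2 libraries, against 77.6, 45.5 and 55.1 CPM in controls, and its log2 change of -0.37 ± 0.10 missed the threshold (edgeR adjusted p = 0.0737).

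All 9 cyclins and mitotic kinases fell, with a median log2 change of -1.75. Plk1, the kinase that drives mitotic entry and centrosome maturation, had 9.40 and 3.17 CPM in H2O2 libraries, against 33.1, 8.94 and 15.3 CPM in controls (log2 change -1.87 ± 0.25, edgeR adjusted p = 0.0175). Ccnb2, a B-type cyclin, had 10.1 and 2.98 CPM in H2O2 libraries, against 38.1, 7.98 and 15.7 CPM in controls (log2 change -1.94 ± 0.29, edgeR adjusted p = 0.0213). Ccna2, the cyclin of S phase and early mitosis, was the most abundant by CPM, with 29.5 and 12.2 CPM in H2O2 libraries, against 102, 23.9 and 48.4 CPM in controls (log2 change -1.68 ± 0.28, edgeR adjusted p = 0.0244). In all 3 genes H2O2 replicate 1 was above control replicate 2 and below the other controls. Ccnb1, the partner of Cdk1 at mitotic entry, changed by -1.75, and Cdk1 itself by -1.03 ± 0.17, the smallest change of the 9. Nek2, a kinase of centrosome separation, had the lowest log2 change of all 55 genes, -2.08 ± 0.34, a 4.23-fold lower level. Pbk, a mitotic kinase, changed by -1.91, Aurka, the spindle pole kinase, by -1.46, and Melk by -1.12.

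All 3 genes of the APC/C pathway and mitotic entry fell, with a median log2 change of -1.87. Cdca3, which promotes destruction of the Cdk1 inhibitor Wee1, had 12.2 and 3.82 CPM in H2O2 libraries, against 39.5, 10.9 and 22.0 CPM in controls (log2 change -1.87 ± 0.31, edgeR adjusted p = 0.0240). Cdc20, the APC/C activator of mitosis, had 6.92 and 2.40 CPM in H2O2 libraries, against 24.9, 5.32 and 10.6 CPM in controls (log2 change -1.80 ± 0.30, edgeR adjusted p = 0.0240). Ube2c, the ubiquitin-conjugating enzyme that works with the APC/C, changed by -2.07 ± 0.36, a 4.21-fold lower level. H2O2 replicate 1 exceeded control replicate 2 for each of the 3 genes.

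All 7 spindle and microtubule genes fell, with a median log2 change of -1.67. Nusap1, which links microtubules to chromosomes, had 17.0 and 7.19 CPM in H2O2 libraries, against 66.4, 20.3 and 35.4 CPM in controls, without overlap. Its log2 change of -1.96 ± 0.24 had one of the lowest adjusted p of the 55 genes (edgeR adjusted p = 0.0149). Stmn1, which encodes stathmin and binds free tubulin, had 27.0 and 12.0 CPM in H2O2 libraries, against 85.7, 22.6 and 36.2 CPM in controls (log2 change -1.48 ± 0.21, edgeR adjusted p = 0.0184). Tpx2, which starts microtubules at chromosomes and activates Aurora A, had 30.1 and 17.4 CPM in H2O2 libraries, against 73.2, 29.7 and 46.2 CPM in controls (log2 change -1.20 ± 0.19, edgeR adjusted p = 0.0220). The other 4 changed by -1.98 (Aspm, a spindle pole protein), -1.85 (Prr11), -1.67 (Ckap2l) and -1.56 (Hmmr, a spindle protein and hyaluronan receptor) on the log2 scale.

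Of the 4 condensin genes, 3 fell. Ncapg, a condensin I subunit, had 15.4 and 8.87 CPM in H2O2 libraries, against 38.2, 15.7 and 24.8 CPM in controls (log2 change -1.25 ± 0.20, edgeR adjusted p = 0.0240). Ncaph, the kleisin of condensin I, had 15.4 and 6.67 CPM in H2O2 libraries, against 42.4, 13.5 and 24.1 CPM in controls (log2 change -1.48 ± 0.24, edgeR adjusted p = 0.0240). The pair of ATPase subunits that both condensins share gave different calls: Smc2 changed by -0.89 ± 0.19 (edgeR adjusted p = 0.0397), and Smc4 was not called. Smc4 had 129.5 and 277 CPM in H2O2 libraries, against 223, 254 and 303 CPM in controls (log2 change -0.33 ± 0.17, edgeR adjusted p = 0.262). H2O2 replicate 1 was the lowest library for Smc4 and H2O2 replicate 2 lay between the 2 controls of its set; no other member had its lowest value in H2O2 replicate 1. Per kilobase of transcript, Smc4 was the most abundant of the 55 genes, at 47.1 ± 24.1 CPM per kb in H2O2 libraries (SD, n = 2) and 60.2 ± 9.30 CPM per kb in control libraries (SD, n = 3), and Kif14 the least, at 0.532 ± 0.445 CPM per kb in H2O2 libraries and 1.54 ± 1.15 CPM per kb in control libraries.

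All 4 chromosome structure genes fell. Mki67, which encodes the proliferation antigen Ki-67 on the surface of mitotic chromosomes, had 135 and 67.4 CPM in H2O2 libraries, against 414, 112 and 202 CPM in controls (log2 change -1.39 ± 0.24, edgeR adjusted p = 0.0255). Top2a, the topoisomerase that untangles sister chromatids, had 113 and 57.5 CPM in H2O2 libraries, against 331, 105 and 206 CPM in controls (log2 change -1.49 ± 0.26, edgeR adjusted p = 0.0259). In both, H2O2 replicate 1 lay between control replicates 2 and 3. Cdca2, a phosphatase subunit of anaphase chromatin, changed by -1.48, and Cdca5, which encodes the cohesin protector sororin, by -0.98.

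All 5 cytokinesis genes fell, with a median log2 change of -1.36. Anln, which encodes anillin, the scaffold of the contractile ring, had 19.0 and 10.1 CPM in H2O2 libraries, against 57.0, 22.6 and 33.8 CPM in controls, with no overlap (log2 change -1.53 ± 0.18, edgeR adjusted p = 0.0149). Prc1, which bundles the microtubules of the central spindle, had 25.1 and 10.7 CPM in H2O2 libraries, against 80.4, 22.9 and 41.0 CPM in controls (log2 change -1.63 ± 0.24, edgeR adjusted p = 0.0210). Racgap1 and Ect2, regulators of the small GTPase RhoA at the division plane, changed by -1.36 and -1.28, and Cep55, a protein of the midbody, by -1.33. The spans of 8 of the 55 genes overlap another gene with a row (Kif20a, Ccna2, Aurka, Cdc20, Nusap1, Ncapg, Prc1 and Anln); the strand setting of the counts is not given in the sources used here, so reads of such neighbours may be shared.

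**Figure D3:**
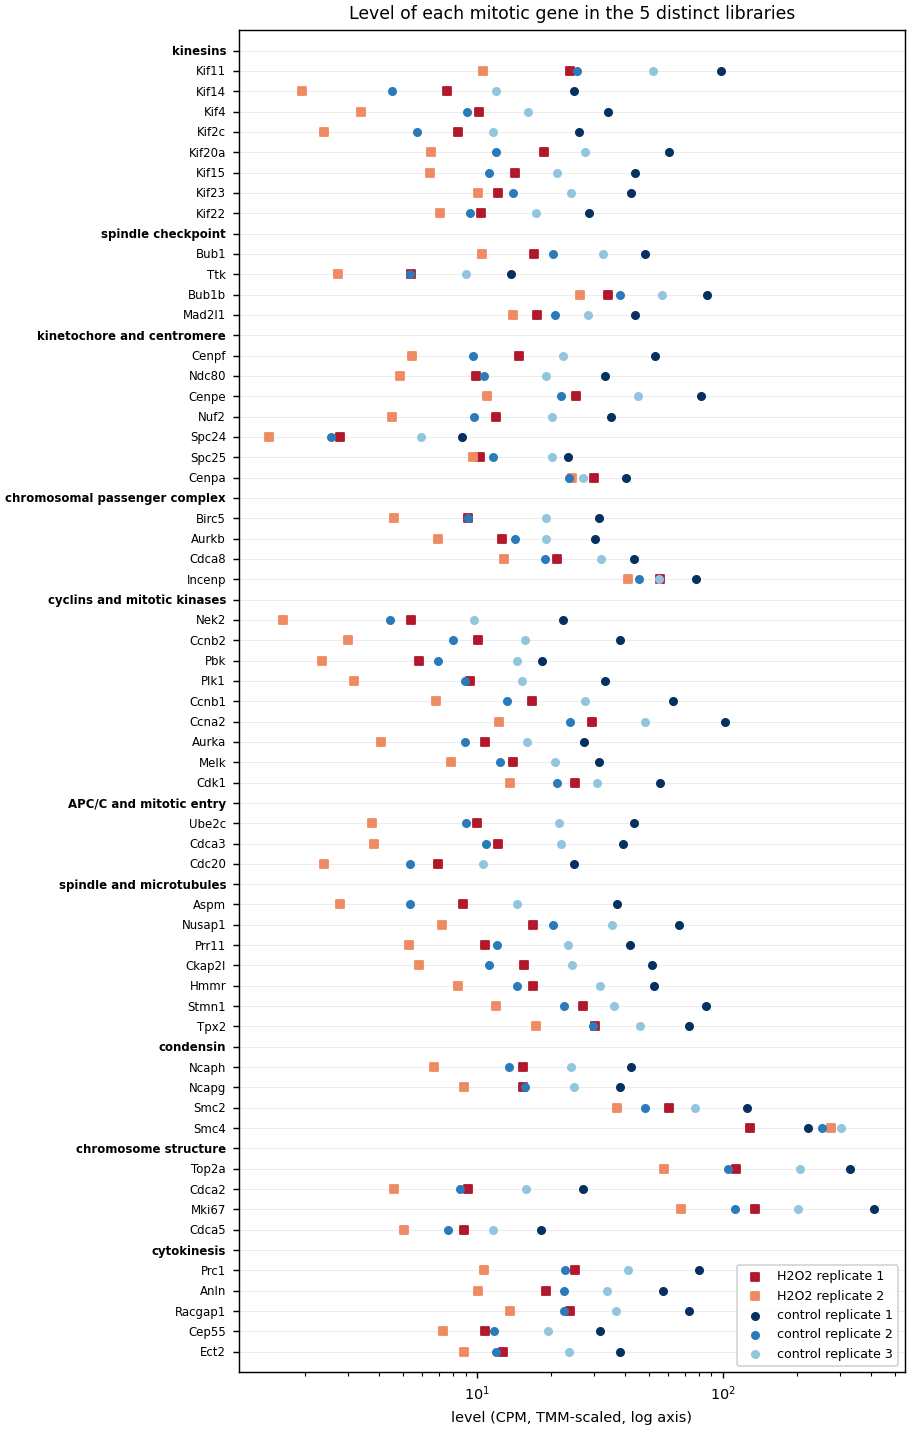
Level of each of the 55 genes in the 5 distinct libraries (horizontal log axis, CPM scaled to TMM library sizes; squares are the 2 H2O2 libraries and circles the 3 control libraries; genes run down the page by role). H2O2 replicate 2 is the lowest point for 53 genes and control replicate 1 the highest for 54.

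The libraries stood in nearly the same order for most genes. H2O2 replicate 2 was the lowest library in 53 of the 55 genes, Cenpa and Smc4 being the exceptions, and control replicate 1 was the highest in 54, Smc4 being the exception. In 37 genes the order from low to high was H2O2 replicate 2, control replicate 2, H2O2 replicate 1, control replicate 3 and control replicate 1, and in 15 genes H2O2 replicate 1 and control replicate 2 changed places. Both H2O2 libraries lay below all 3 controls in 15 of the 55 genes, against 10.7% of all tested genes. H2O2 replicate 1 was above control replicate 2 in 39 genes and above control replicate 3 in 2.

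The controls also differed from each other. Control replicate 3 was above control replicate 2 in all 55 genes, by a median factor of 1.79 (range 1.14 to 2.74), where the median over all tested genes was 1.00. Control replicate 1 was above control replicate 2 by a median factor of 3.23. The 55 genes therefore move together across libraries of the same treatment and do not count as 55 separate observations of the difference between the groups.

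Within set A, H2O2 replicate 1 was below control replicate 1 in 55 of 55 genes (all tested genes, 49.1%), with a median log2 ratio of -1.63. Within set B, H2O2 replicate 2 was below both controls in 53 of 55 genes (all tested genes, 41.5%), again all but Cenpa and Smc4. Its median log2 ratio was -0.93 against control replicate 2 and -1.85 against control replicate 3, so the size of the set B difference rested on which control was used. The genes that were lower within both sets numbered 53 of 55, against 28.0% of all tested genes. Fitted for set B alone, 21 of the 55 genes were called lower (edgeR, 1 residual degree of freedom; all tested genes, 4.62%), with a median log2 change of -1.48. That count was 0 with DESeq2's size factors in place of TMM and 46 with library totals alone, while the direction was below 0 for all 55 genes under both scalings. It was 0 with no filter on low counts, 3 with limma-voom and 18 with DESeq2. Set B has 1 H2O2 library, so the spread in this test comes from control replicates 2 and 3 alone and no variation between H2O2 libraries enters it. Over the whole table, all or nearly all set B calls were also lost with DESeq2's size factors and with no filter. These counts of 0 are therefore not particular to the 55 genes. With library totals, more genes were called lower in the whole table too. With limma-voom, by contrast, the whole table kept most of its calls, while with DESeq2 it lost most of them.

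Genes with the larger ratio in set A tended to have the larger one in set B: across the 55 genes the Pearson correlation of the 2 log2 ratios was 0.85 and Spearman's rho 0.80. These values describe genes, which are not independent replicates, and the 2 ratios share no library. The fitted difference of the H2O2 effect, set B less set A, had a median of 0.12 over the 55 genes in edgeR. It ran from -0.53 to 0.88 on the log2 scale and was 0.77 ± 0.17 (SE) for Smc4. DESeq2 gave a median of 0.13. Each set has 1 H2O2 library, so this difference is given by size only.

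**Figure D4:**
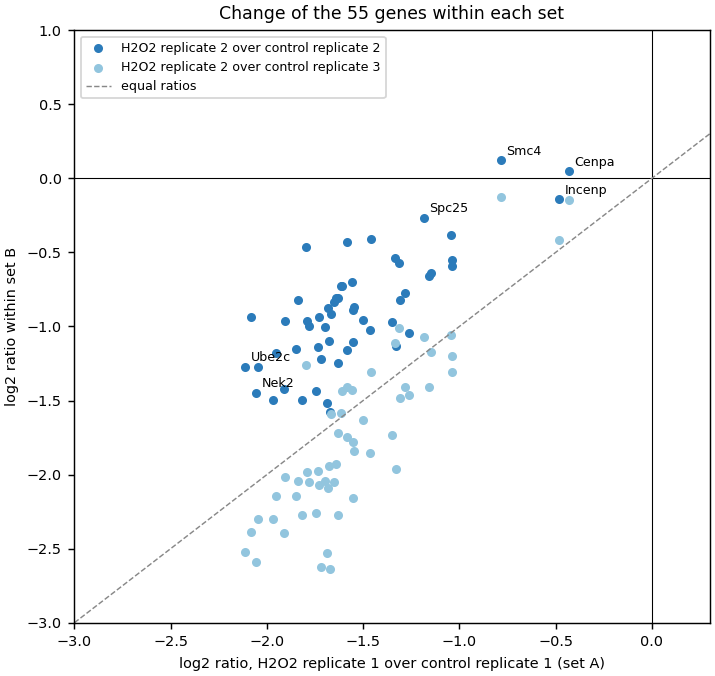
Log2 ratio of H2O2 to control within set A (horizontal axis) and within set B (vertical axis) for the 55 genes; dark points use control replicate 2 and light points control replicate 3, and the dashed line marks equal ratios. Dark points have a median of -0.93 and light points one of -1.85 on the vertical axis, and only Smc4 and Cenpa rise above 0 with control replicate 2.

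Further genes of mitosis were taken from 6 lists. Of these 110 genes, 38 fell and 0 rose, with a median log2 change of -0.45 against -1.49 for the 55. Among 31 other kinetochore and checkpoint genes 13 fell; Cenpi, of the inner kinetochore, changed by -1.39 and Ska3, of the microtubule-binding SKA complex, by -1.35. Among 33 other spindle and cytokinesis genes 16 fell; the lowest p belonged to Dlgap5, which changed by -1.50, and Cit, the citron kinase, which changed by -1.52, while the list's lowest log2 change was -1.94. The 2 called among 4 other condensin subunits were Ncapd2 at -1.25 and Ncapg2 at -0.79. Of 11 mitotic entry regulators 4 fell: Mastl at -1.58, Pkmyt1 at -1.37, Cdc25b at -1.06 and Bora at -0.75.

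The lists of cohesin, APC/C and transport kinesin genes had medians near 0. Over all tested genes 4.61% were called lower and 480 of 12209 higher. Whether the few calls in these lists exceed those shares was not tested. Of 14 cohesin and separase genes 2 fell, with a list median of -0.09: Esco2, the S phase acetyltransferase of cohesin, changed by -1.62 and Espl1, which encodes separase, by -1.62. Of 17 APC/C subunits and regulators 1 fell, Fbxo5 at -1.22, the inhibitor EMI1, and the list median was 0.02. Of 17 tested transport kinesins, motors of intracellular cargo, Kif1c rose by 0.39 ± 0.07 and Kif3a by 0.51 ± 0.12, while Kif21b fell by 0.32 ± 0.07 on the log2 scale (edgeR adjusted p = 0.0252, 0.0452 and 0.0406).

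Among 24 transcription factors, repressors and cell cycle inhibitors listed as regulators of mitotic genes, 5 fell and 0 rose. Foxm1, an activator of late cell cycle genes, had 10.5 and 3.11 CPM in H2O2 libraries, against 33.3, 7.19 and 14.2 CPM in controls (log2 change -1.72 ± 0.29, edgeR adjusted p = 0.0244). Mybl2, which encodes the activator B-MYB, had 9.81 and 3.89 CPM in H2O2 libraries, against 19.8, 8.76 and 15.1 CPM in controls (log2 change -1.30 ± 0.27, edgeR adjusted p = 0.0355). Their library order was that of the mitotic genes, with H2O2 replicate 2 lowest and control replicate 1 highest. The other 3 were Cdkn2c at -1.13, E2f2 at -0.72 and Rbl1, which encodes p107, at -0.54. E2f1 had a log2 change of -0.32 ± 0.11 (edgeR adjusted p = 0.118), and Trp53, which encodes p53, one of -0.06 ± 0.08 (edgeR adjusted p = 0.700). Cdkn1a, the p53 target that encodes the cell cycle inhibitor p21, had 861 and 1349 CPM in H2O2 libraries, against 543, 1466 and 1326 CPM in controls (log2 change 0.26 ± 0.16, edgeR adjusted p = 0.327). It was higher in the H2O2 library of set A and between the controls in set B.

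DNA replication genes act earlier in the cycle, and 22 of 43 fell with a median log2 change of -0.61. Tyms, the thymidylate synthase, changed by -0.90 and Rrm2, a ribonucleotide reductase subunit, by -1.22. Pcna, the sliding clamp of DNA polymerases, had 188 and 135 CPM in H2O2 libraries, against 203, 128 and 151 CPM in controls (log2 change -0.07 ± 0.09, edgeR adjusted p = 0.631). Of 6 G1 cyclins and kinases, Cdk2 changed by -0.50 and Ccnd3 by -0.35, and the other 4 were not called. That count was not tested against the 4.61% of all tested genes called lower. The CHR hexamer was in the promoter window of 18 of 30 called genes (60%) and of 20 of 63 uncalled genes (31.7%) in the 6 further lists of mitotic genes. Among DNA replication genes the order was the other way, with the hexamer in 2 of 20 called genes (10%) and in 4 of 13 uncalled genes (30.8%). Over all tested genes apart from the 55, which include these further lists, it was in 26.2% of those called lower, 15.6% of those called higher and 16.4% of those not called.

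**Figure D5:**
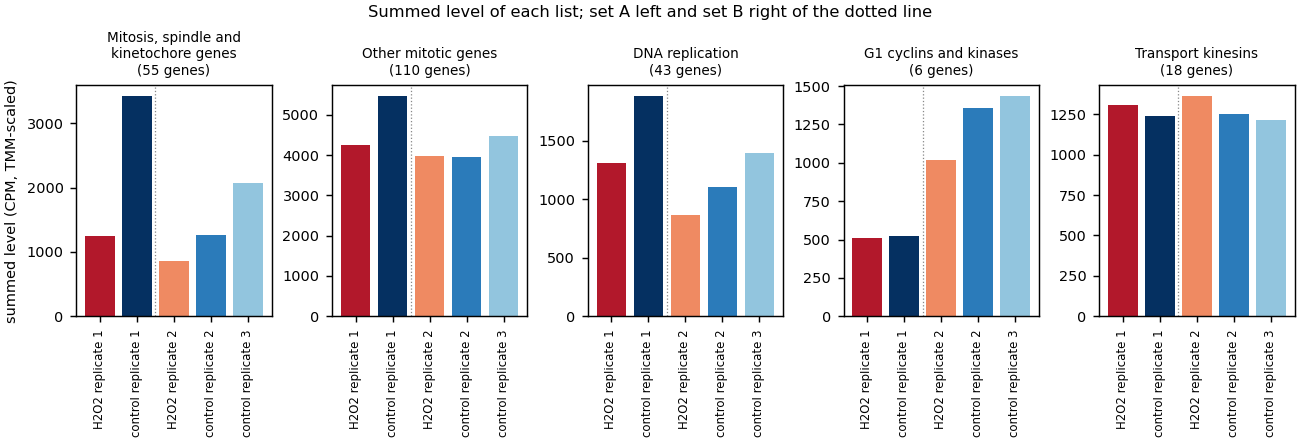
Summed level (vertical axes, CPM scaled to TMM library sizes) of the 55 mitotic genes and 4 further gene groups in each library; red and orange bars are the H2O2 libraries, blue bars the controls, and a dotted line parts set A from set B. The 55 genes sum to 1245 and 867 CPM in H2O2 replicates 1 and 2, against 3417, 1259 and 2077 CPM in control replicates 1, 2 and 3.

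Summed over the 55 genes, the level was 1245 and 867 CPM in H2O2 libraries, against 3417, 1259 and 2077 CPM in controls. Smc4 supplied 31.9% of the sum in H2O2 replicate 2 and between 6.52% and 20.2% elsewhere. Without it the sums were 1115 and 590.1 CPM in H2O2 libraries, against 3194, 1005 and 1774 CPM in controls.

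Markers of cell types in such cultures moved as well. Over all tested genes 4.61% were called lower and 480 of 12209 higher, and the marker counts were not tested against these shares. Dendritic cell markers, among them MHC class II genes, summed to 13211 and 13393 CPM in H2O2 libraries, against 14998, 15773 and 15666 CPM in controls, and 6 of 10 tested markers fell; the lectin gene Cd209a was at 0 in both H2O2 libraries and in control replicate 1. Macrophage markers summed to 796 and 1084 CPM in H2O2 libraries, against 927, 987 and 1023 CPM in controls; of 8 tested, C1qb and C1qc fell and Cd68 rose by 0.40 on the log2 scale (edgeR adjusted p = 0.0240). Markers of granulocyte precursors summed to 0.887 and 4.40 CPM in H2O2 libraries, against 9.18, 13.7 and 29.2 CPM in controls, and 3 of 5 tested fell. These precursors divide, and the sum of their markers was low in both groups but lower in both H2O2 libraries. Mpo, Elane and Ctsg were below every control in both H2O2 libraries. Prtn3 and Ms4a3 were higher in H2O2 replicate 2 (0.777 and 2.20 CPM) than in control replicate 1 (0.697 and 1.16 CPM). Across both sets the sum was lowest in H2O2 replicate 1 and highest in control replicate 3, which is not the order of most of the mitotic genes. Within each set the order was that of most mitotic genes: lower in H2O2 than in control, and higher in control replicate 3 than in control replicate 2.

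Mast cell and basophil markers summed to 10.1 and 21.1 CPM in H2O2 libraries, against 32.1, 53.4 and 80.5 CPM in controls, and 5 of 7 fell. Stem and progenitor cell markers summed to 55.7 and 31.3 CPM in H2O2 libraries, against 91.0, 39.5 and 51.5 CPM in controls, and 1 of 5 fell. The progenitor sum was lowest in H2O2 replicate 2 and highest in control replicate 1, though single markers differed: Cd34 and Kit were lowest in H2O2 replicate 1, and Cd34 was highest in control replicate 3. The lists share genes: Flt3, the progenitor marker that fell, is also among the dendritic cell markers that fell, and Kit is in both the progenitor and the mast cell list. Neutrophil markers summed to 119 and 581 CPM in H2O2 libraries, against 117, 356 and 593 CPM in controls, with 1 of 6 called lower. Markers of T, B and NK cells stayed at or under 2.84 CPM and erythroid markers at or under 2.32 CPM in every library. The part of these cell types in the fall of the mitotic genes was not tested.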

How the data were processed

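RNA-seq libraries of 3 control and 3 H2O2 samples were used, 5 of them distinct. Per the file headers, the deposited values are estimated counts per gene, and they carry no normalization. HISAT, Bowtie2 and GRCm38.p6 are named in the submitters' processing notes; no counter, strand setting or filter is given in the sources used here. Between 8.38% and 9.03% of values per library were not whole; counts were rounded. NCBI Gene numbers were matched to RefSeq symbols for 17520 rows; the other 47 held 0.14% of the counts. Genes were filtered with edgeR's filterByExpr (minimum count 10, minimum total 15), scaled with TMM factors and tested with edgeR's quasi-likelihood F test over all 12209 genes (set term, 2 residual degrees of freedom; Benjamini-Hochberg adjusted p at most 0.05). SE is the absolute log2 change over the square root of F. CPM values are scaled to TMM library sizes, except the Y-linked sum, which is scaled to library totals.

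The set term follows the comparison of H2O2 libraries with controls of their own set; the sets were seen in the data. The members, the gene lists, the markers and the fits were chosen with earlier results of these data known. Values per library are given for the 2 lowest-p members and the most abundant member of each role, every member not called, and, whatever their values, Foxm1, Mybl2, Cdkn1a, Trp53, E2f1 and Pcna (some by change only); in the further lists, the 2 called genes with the lowest p are named, or all called genes where at most 5 moved one way. Nek2, Ube2c, Ttk, Spc24 and Kif14 were singled out after their values were seen. An exact permutation test of 3 libraries against 2 cannot give a p below 0.1. The scripts were tested on simulated data. Transcript length was that of the longest protein-coding transcript in GENCODE M21. DESeq2 1.42.0, edgeR 4.0.16 and limma 3.58.1 were run in R 4.3.3. Alternatives were DESeq2's size factors, library totals, no low-count filter, DESeq2, limma-voom, no set term, a replicate block and leaving out each library; the fits of DESeq2 and limma-voom without the set term were chosen after seeing the data.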

Additional observations from a re-analysis of the deposited data

How the results depend on the processing

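With the set term, 51 of the 55 genes were called lower (563 of 12209 genes in all). The count was 51 with DESeq2's size factors (584 in all), 53 with library totals (910), 52 with DESeq2 (523) and 48 with limma-voom (529). It was 3 with no filter on low counts (Aurkb, Nusap1 and Anln) and 0 without the set term in edgeR, DESeq2 and limma-voom. Without control replicate 1, 44 of the 55 genes were called lower (816 of 12003 genes in all). The count was 53 without control replicate 2 (468 of 12103) and 45 without control replicate 3 (196 of 12091). Without H2O2 replicate 2 all calls of the 55 genes and nearly all others were lost. Without H2O2 replicate 1 fewer of the 55 genes were called, although the whole table had more calls, higher and lower together. Without either set A library only set B informs the treatment. Over all genes 1043 were called. The count was 102 with no filter, and without the set term it was 105 with DESeq2 and 0 with edgeR and limma-voom. It was 304 to 2064 when each control library was left out. The set B count of 21 was 0 with DESeq2's size factors, 46 with library totals, 0 with no filter, 3 with limma-voom and 18 with DESeq2; leaving out its controls in turn was not run as a test, since no residual degree of freedom remains. All or nearly all set B calls in the whole table were also lost with DESeq2's size factors and with no filter. With DESeq2 most were lost, and with limma-voom most were kept. Library totals moved the median of all genes by less than 0.1 on the log2 scale. The median difference between the sets over the 55 genes was 0.12 in the main fit, 0.07 with library totals and 0.21 with limma-voom. A replicate block by the titles' numbers called 51 of the 55 genes and 554 in all. Control replicate 3 is alone in its block and does not inform the treatment there. Same-numbered libraries deviated together (correlation 0.81 and 0.71 over all genes), but so did H2O2 replicate 2 and control replicate 3 (0.66). The deviations of the 2 H2O2 libraries mirror each other (0.81 and -0.81 against control replicate 1). These correlations are therefore not separate observations and cannot show pairing by number. With only 2 pairs the titles do not establish pairing, and the block also parts the sets. All 55 log2 changes lay below 0 in the fits over both sets; in the set B fit with no filter 54 did, and Smc4 was at 0.0017. The spread behind the main fit with the set term rests on 2 residual degrees of freedom. The fits for set B, for the difference between sets and for the replicate block rest on 1. Depth was nearly equal between libraries and was not varied.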
